A study of Homo sapiens with 66 samples.

Results

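The small nucleolar RNA host genes are long noncoding genes whose introns carry small nucleolar RNAs (snoRNAs) or the related small RNAs of Cajal bodies. They were taken here by name, as every gene whose symbol is SNHG followed by a number, together with GAS5, ZFAS1 and EPB41L4A-AS1, which gave 31 of the 58051 genes counted. In these genes the excised introns are trimmed to the small RNAs, of which box C/D RNAs guide ribose methylation and box H/ACA RNAs guide pseudouridylation, mostly of ribosomal RNA. The exons are joined into a spliced RNA that codes for little or nothing. Many such RNAs reach the cytoplasm and are degraded there by nonsense-mediated decay once ribosomes read their short open reading frames, and several begin with the oligopyrimidine tract known from messenger RNAs of ribosomal proteins.

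RNA was sequenced from DLD-1, a human colorectal cancer line, after removal of ribosomal RNA. In the tagged lines both alleles of 1 gene carried an auxin-inducible degron (AID), which has the protein destroyed when auxin is added, and the ligase TIR1 needed for this was expressed from the RCC1 locus. The label genotypes were AID-FLAG-NXF1 (auxin for 2 h), AID-HA-GANP1 (3 h), AID-NeonGreen-TPR (2 h and, in a separate set of libraries labelled old, 2 h and 8 h), NUP153-NeonGreen-AID (2 h and 8 h), NUP50-NeonGreen-AID (3 h and 9 h), GAP1-NeonGreen-AID (RANGAP1, 2 h and 8 h) and the original DLD-1 line (2 h). Auxin was used at 1 mM, and each line and label set had its own untreated libraries. AID-NeonGreen-TPR cells were also given Actinomycin D (ActD), a transcription inhibitor, for 2 h, alone or with auxin. All 22 groups held 3 libraries, which the study's methods call independent biological replicates. NXF1 is the receptor that carries most messenger RNA out of the nucleus, GANP is the scaffold of the TREX-2 export complex, TPR, NUP153 and NUP50 form the basket on the nuclear side of the pore, and RANGAP1 drives the hydrolysis of GTP by Ran in the cytoplasm. The degron acts on protein, so the RNA of the tagged gene does not check the depletion.

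Library totals lay between 18943661 and 55411411 counts, with a median of 32285399, and the 31 host genes held 0.137% to 0.284% of them. Markers were read in the 60 libraries without ActD. The epithelial markers EPCAM (338 to 734 CPM, counts scaled to a common library size), KRT8, KRT18, KRT19 and CDH1 were present in each. Of the intestinal markers, CDX2 (69.8 to 358 CPM), KRT20 (6.12 to 186) and VIL1 (1.34 to 29.6) were present as well, while CDX1 was near 0 (at most 0.537). Those of fibroblasts, leukocytes, endothelium and mesenchyme stayed at or below 1.79 CPM. The libraries showed 3 patterns of counting. In 24 (DLD-1, NXF1, GANP and the TPR libraries without the label old) the noncoding gene RMRP had counts and mitochondrial genes had none. The 9 RANGAP1 libraries had counts on both, and the other 33 had mitochondrial counts but none on RMRP. From this, a read on overlapping genes was taken as counted for each gene in the 24 and the 9, and not in the 33. Of the 31 host genes, 28 shared exon bases with another gene, up to 90.8% for SNHG28, which was too low to be tested, and 72.9% for SNHG21 and 62.4% for SNHG6 among those tested. The mean CPM of SNHG14 in untreated AID-TPR cells was 16.8 times higher in the set without the label old than in the set with it, that of SNHG3 3.40 times and that of ZFAS1 1.87 times, while SNHG18 stood at 0.354 times. Changes are therefore given only within a line and label set.

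Small RNA genes that lie within some hosts had counts of their own. In lines counted with overlap, the counts on small RNA genes within a host, as a percentage of the host's own count, came to between 228 and 816 for SNHG10, between 90.1 and 142 for SNHG3 and between 87.4 and 117 for SNHG25, but to at most 9.72 for SNHG5 and 9.9 for EPB41L4A-AS1. Where the small RNA count exceeded that of the host, not all of these reads can have been part of the host's count. How many were is not known. For GAS5 the counted annotation named no small RNA gene, so its percentage was 0 by construction. How much of a change in a host came from its small RNA was not tested, beyond a subtraction of those counts in 6 comparisons (TPR without the label old, RANGAP1 at both times, NXF1, GANP and DLD-1). That subtraction took off every small RNA gene within a host's span, also those outside its exons. Reads of the latter need not be in the host's count. Of the 31 genes, SNHG27, SNHG28 and SNHG31 were below the filter (more than 1 CPM in at least 4 of the 60 libraries without ActD) and 28 were tested among 17812 genes. By the small RNAs that the annotation or RefSeq names within them, 13 of the 31 carry mostly box C/D RNAs, 12 mostly box H/ACA RNAs, SNHG25 carries 1 of each, 4 (SNHG10, SNHG20, SNHG21 and SNHG22) carry Cajal body RNAs, and none of a known kind was named for SNHG28.

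The first bases of the hosts are shown because a C at the start followed by pyrimidines is the mark by which ribosomal protein messenger RNAs are recognised. RefSeq start sites on GRCh38.p14 were found for 27 of the 31 genes (SNHG6, SNHG9, SNHG15 and SNHG25 were not matched). Each line gives 20 bases before and 30 from the annotated start on the gene's own strand, with a run of C and T that begins with C at the start in capitals. The first 5 have such a run (a C and at least 4 further C or T) and the last 3 do not. ZFAS1 lies at chr20:49278622-49278671 (plus strand), SNHG5 at chr6:85678704-85678753 (minus), SNHG19 at chr16:2155329-2155378 (minus), SNHG4 at chr5:139274081-139274130 (plus), SNHG12 at chr1:28581844-28581893 (minus), GAS5 at chr1:173869016-173869065 (minus), SNHG1 at chr11:62855856-62855905 (minus) and EPB41L4A-AS1 at chr5:112160506-112160555 (plus).
ZFAS1: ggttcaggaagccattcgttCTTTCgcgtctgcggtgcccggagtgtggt
SNHG5: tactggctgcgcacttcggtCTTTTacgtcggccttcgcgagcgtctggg
SNHG19: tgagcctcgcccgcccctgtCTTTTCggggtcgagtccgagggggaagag
SNHG4: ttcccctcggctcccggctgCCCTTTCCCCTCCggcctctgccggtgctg
SNHG12: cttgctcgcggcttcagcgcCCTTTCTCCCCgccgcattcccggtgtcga
GAS5: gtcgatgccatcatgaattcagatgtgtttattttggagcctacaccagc
SNHG1: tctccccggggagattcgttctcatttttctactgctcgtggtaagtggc
EPB41L4A-AS1: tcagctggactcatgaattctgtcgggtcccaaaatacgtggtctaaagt
Among the 27 hosts, 7 (25.9%) had a run at the annotated start, SNHG18 and SNHG32 being the others, beside 1429 of 35116 annotated starts (4.07%) and 43 of 76 ribosomal protein genes (56.6%). Within 10 bases of the start on either side, 16 of the 27 hosts, 11755 of the 35116 starts and 61 of the 76 ribosomal protein genes had one. Only the gene's own strand was searched. The start sites of cells can differ from the annotated ones, and no match says only that these letters are not in this window. Annotations differ too. The RefSeq start of GAS5 (173869045, minus strand) lies outside the GENCODE gene, which reaches only to 173868882. That of SNHG14 (24823608, plus strand) lies before the GENCODE start at 24978583, and that of SNHG3 (28505943, plus strand) before 28505980. For such hosts, having no run holds for the RefSeq start alone.

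In untreated cells the hosts covered a wide range of levels per length. On the scale of CPM per kilobase of exon (RPKM), means of 3 libraries, GAS5 lay between 33.3 and 54.4 over the 8 untreated groups, SNHG1 between 35.5 and 60.6, and SNHG29 between 38.2 and 61.9. These 3 were among the highest hosts in most lines. SNHG3 (20.7 to 141) stood above every other host in the lines counted with overlap, and SNHG25 spanned 19.7 to 66.5. In lines counted with overlap, small RNA genes within both had counts near or above the host's. How many of these reads the host's count holds is not known. ZFAS1 stood at 4.71 to 13.7, EPB41L4A-AS1 at 4.18 to 6.64 and SNHG5 at 3.30 to 4.48. SNHG26 was low, at 0.73 to 1.3, as was SNHG21, at 0.88 to 3.42. At the foot of the tested hosts SNHG14, the transcript of the Prader-Willi locus on chromosome 15 that carries most of the 139 small RNA genes found within these hosts (84 of them), had 0.01 to 0.14, over an exon length that includes many rare transcripts.

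The comparisons asked how these RNAs respond when a protein of RNA export, of the nuclear basket or of Ran-dependent transport is removed, or when transcription is stopped. Genes counted as called when edgeR's quasi-likelihood test gave an adjusted p under 0.05 (Benjamini-Hochberg over 17812 genes) and the fold was 1.3 or more, or 0.7 or less. After loss of NXF1, 8 of the 28 hosts rose, beside 2.18% of all genes called higher. After loss of GANP 3 rose, beside 3.93% of all genes called higher. After loss of RANGAP1, 2 fell by 2 h (0.107% of all genes called lower) and 9 fell and 2 rose by 8 h (6.62% and 8.23%). ActD lowered 5, beside 21.1% of all genes called and 12.3% called lower. Loss of the basket proteins gave 1 call in 7 comparisons, SNHG1 after 9 h without NUP50, where 0.0225% to 3.59% of all genes were called. The values are bulk measures relative to the other RNA of a library, in which fewer cells with an RNA and less of it per cell cannot be told apart.

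**Figure D1:**
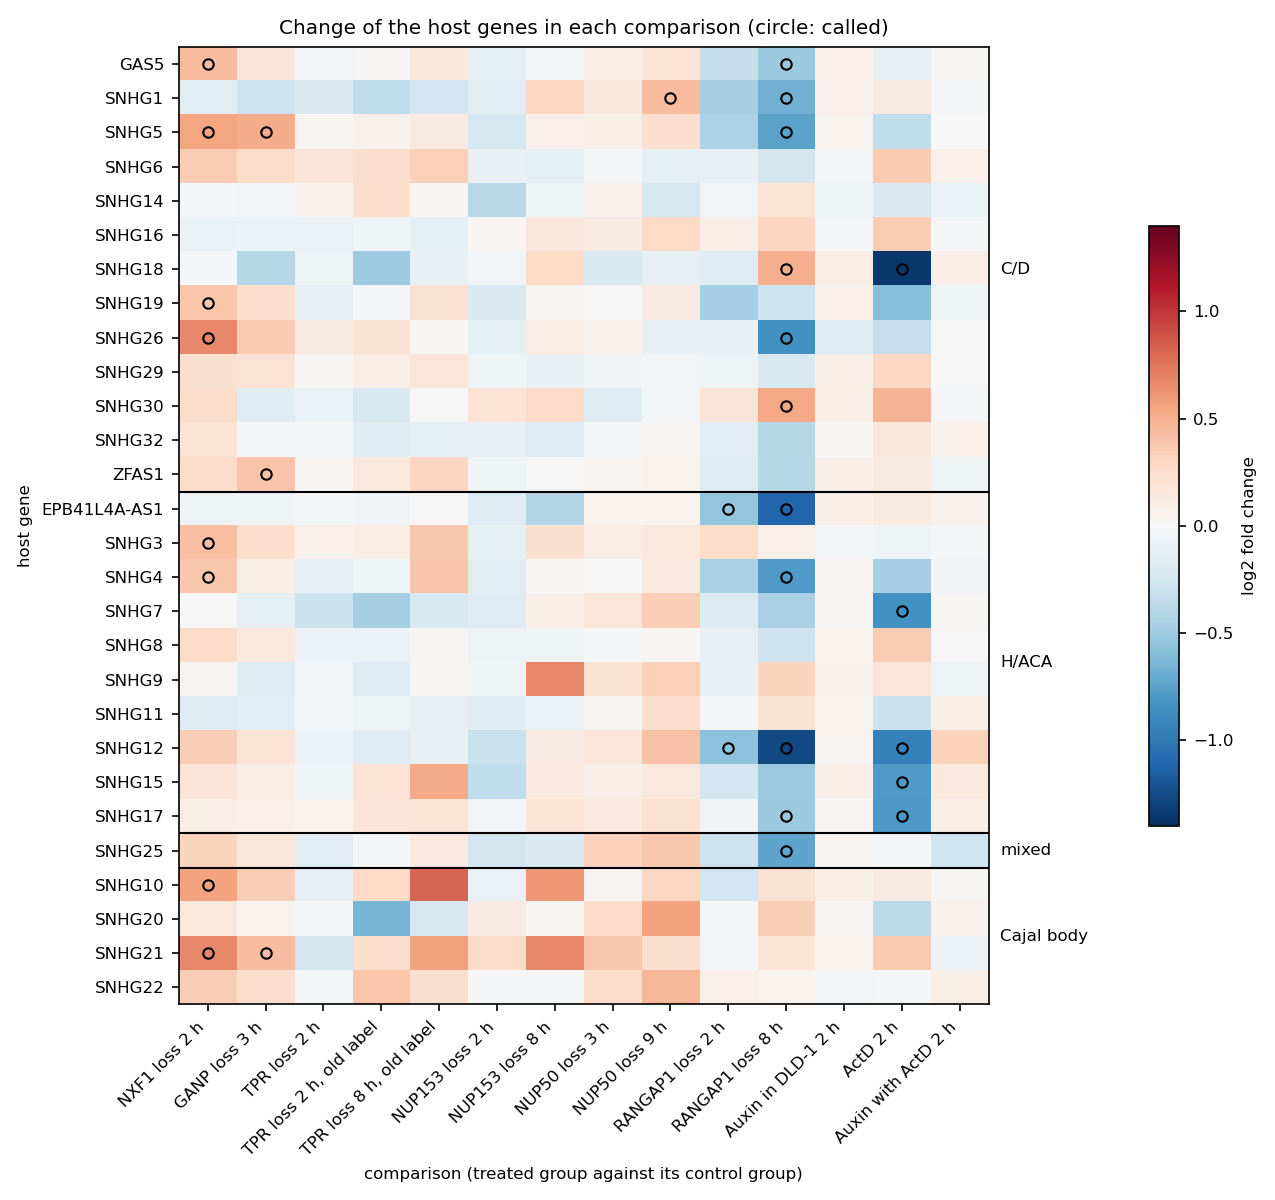
Log2 fold change (colour) of the 28 tested host genes (rows, grouped by the kind of small RNA they carry) in 14 comparisons (columns), with circles on called genes. The NXF1 column holds 8 circles, all on genes that rose, and the column of RANGAP1 loss at 8 h holds 11, of which 9 are on genes that fell.

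**Figure D2:**
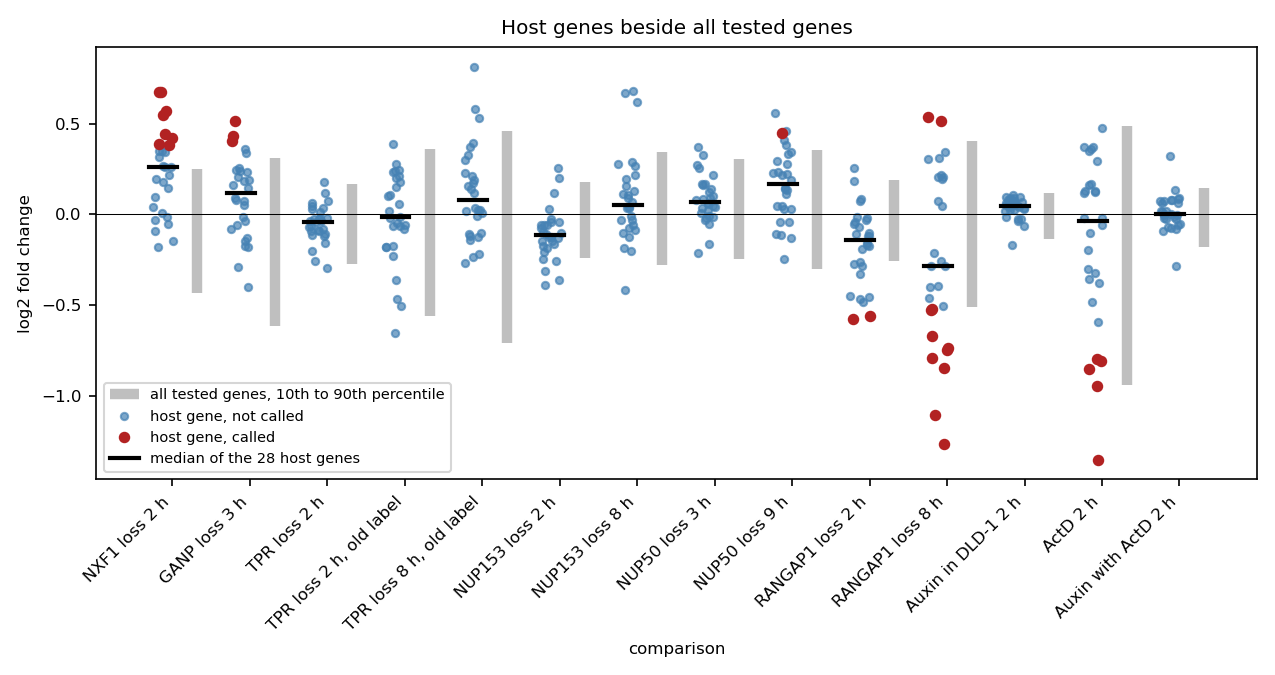
Log2 fold change of each tested host gene (points, red where called) with the median of the 28 (black line) beside the 10th to 90th percentile of all 17812 tested genes (grey bar), by comparison. The median of the hosts stood at 0.26 after NXF1 loss and at -0.29 after 8 h without RANGAP1.

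Loss of NXF1 for 2 h raised 8 of the 28 hosts (28.6%): GAS5, SNHG3, SNHG4, SNHG5, SNHG10, SNHG19, SNHG21 and SNHG26. Of all tested genes 8.12% were called and 2.18% were called higher. The median over the hosts was 0.26 on the log2 scale, against 0.01 over all genes, and 22 of the 28 lay above 0. GAS5, host of a cluster of box C/D RNAs and a classical target of decay during translation, had 330.5, 327 and 328 normalised CPM in the auxin libraries and 238, 247 and 241 in the untreated ones (log2 fold change 0.44, SE 0.045, adjusted p = 4.84e-05). All 3 auxin libraries lay above the untreated ones, by far more than the spread within either group. SNHG5, host of SNORD50, had 88.5, 82.2 and 72.9 CPM with auxin and 58.7, 56.2 and 51.5 without (log2 fold change 0.55, SE 0.074, adjusted p = 0.000312). The groups again did not overlap. SNHG26, a low host that carries SNORD93, had 11.6, 10.3 and 11.1 CPM with auxin and 7.12, 7.36 and 6.24 without (log2 fold change 0.67, SE 0.098, adjusted p = 0.000541).

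Among hosts of Cajal body RNAs, SNHG10, whose small RNA SCARNA13 held several times its own count, had 14.3, 13.4 and 16.9 CPM with auxin and 8.37, 11.7 and 10.1 without (log2 fold change 0.57, SE 0.13, adjusted p = 0.00768). SNHG21, which shares most of its exon bases with FSD2, had 3.99, 3.99 and 5.85 CPM and 2.09, 3.34 and 3.30 CPM (log2 fold change 0.68, SE 0.20, adjusted p = 0.0346). Its untreated libraries reached 3.34 CPM, and the call was lost without auxin replicate 3 (adjusted p = 0.0976), untreated replicate 1 (0.107) or untreated replicate 2 (0.0576). SNHG3, host of the box H/ACA RNAs SNORA73A and SNORA73B, had 499.96, 477 and 519 CPM and 384, 389.7 and 342 CPM (log2 fold change 0.42, SE 0.060, adjusted p = 0.000467). Its exons overlap those of RCC1, the locus from which TIR1 was expressed in treated and untreated cells alike, and its fold fell below 1.3 without untreated replicate 3 (0.37). The log2 fold change was 0.38 for SNHG4 and 0.39 for SNHG19, just past the fold required. SNHG4 fell short of it without auxin replicate 3 (0.35) or untreated replicate 1 (0.34), and SNHG19 without auxin replicate 1 (0.37), auxin replicate 2 (0.38) or untreated replicate 3 (0.32).

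ZFAS1, host of the 3 SNORD12 RNAs, had 139, 138 and 127 CPM with auxin and 119, 114 and 104 without; the groups did not overlap and the test was passed (adjusted p = 0.00929), but the log2 fold change of 0.26 was under the fold required. In all, 15 hosts had an adjusted p under 0.05 at any fold, and each of these 15 was higher with auxin. The share of all genes that passed at any fold is not given. At an unadjusted p under 0.05 in edgeR's test there were 19 of 28 hosts and 6298 of 17812 genes. SNHG1 went against the others: it had 211, 214 and 216 CPM with auxin and 222, 246 and 241 without (log2 fold change -0.15, adjusted p = 0.0632). EPB41L4A-AS1 had 27.5, 27.3 and 25.97 CPM and 28.5, 31.3 and 24.2 CPM, with groups that overlapped (-0.06, adjusted p = 0.688). For 17 hosts all 3 auxin libraries lay above all 3 untreated ones, beside 17.6% of all genes. For SNHG1 and SNHG11 they lay below, beside 20.9% of all genes. By kind of small RNA, 4 of 13 box C/D hosts, 2 of 10 tested box H/ACA hosts and 2 of 4 Cajal body hosts were called. The 7 hosts with a pyrimidine run at the RefSeq start had a median of 0.35 and the 17 tested ones without it 0.22. This split was not tested, and for some hosts without a run, such as GAS5, the RefSeq start lies outside the GENCODE gene.

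The counts on small RNA genes within a host were taken off the host's count where they came to under 50% of it in every library, an alternative added after the values were known. After NXF1 loss 9 hosts were then called, all higher, SNHG12 (0.59) being the added one, and SNHG21 was at 0.60 (adjusted p = 0.0497). The small RNA gene taken off for SNHG21 was not within its exons, so this value does not measure that RNA's part. Of the 8 called before, SNHG3, SNHG4 and SNHG10 could not be corrected in this way, and GAS5 had no counted small RNA to take off. Of the 47 tested small RNAs within the hosts, 2 rose after NXF1 loss, SNORD1A of SNHG16 (1.36) and SNORD65 of SNHG29 (1.04), with a median of 0.11, while the log2 fold changes of their hosts were -0.09 and 0.22. With library sizes alone in place of TMM normalisation 4 hosts were called (SNHG3, SNHG4, SNHG19 and SNHG21 were lost), and the median of the hosts was 0.20. With 1 fit over 60 libraries 4 were called as well, and SNHG3 (adjusted p = 0.115), SNHG4 (0.181), SNHG10 (0.0741) and SNHG19 (0.163) were lost.

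Loss of GANP for 3 h raised 3 hosts of 28: SNHG5, ZFAS1 and SNHG21. Of all genes 15.5% were called and 3.93% called higher. SNHG5 had 60.6, 56.1 and 55.6 CPM with auxin and 39.2, 39.2 and 41.9 without (log2 fold change 0.52, SE 0.071, adjusted p = 0.000377). ZFAS1 had 96.2, 86.5 and 92.8 CPM and 72.7, 67.9 and 67.8 CPM (log2 fold change 0.40, SE 0.071, adjusted p = 0.00183). In both the lowest auxin library lay well above the highest untreated one. SNHG21 had 3.89, 3.42 and 3.70 CPM and 2.94, 2.85 and 2.39 CPM (log2 fold change 0.43, SE 0.14, adjusted p = 0.0361). Without auxin replicate 1 only SNHG5 was called: ZFAS1 then had a log2 fold change of 0.37, under the fold required, and SNHG21 an adjusted p of 0.0896. SNHG21 was also lost without auxin replicate 3 (adjusted p = 0.0841), untreated replicate 2 (0.0764) or untreated replicate 3 (0.12).

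The other hosts moved in both directions. SNHG1 had 164, 146 and 155 CPM with auxin and 188, 191 and 187 without, so that all 3 auxin libraries lay below, with a log2 fold change of -0.29 that passed the test (adjusted p = 0.0101) but not the fold. SNHG18, host of SNORD123, did the same at -0.40 (adjusted p = 0.0232). GAS5 had 233, 228 and 220.4 CPM and 206, 201 and 194 CPM (0.18, adjusted p = 0.0568), and EPB41L4A-AS1 had 18.97, 17.8 and 19.2 CPM and 17.04, 21.1 and 20.04 CPM (-0.06, adjusted p = 0.69). The groups of GAS5 did not overlap and those of EPB41L4A-AS1 did. In all, 8 hosts had an adjusted p under 0.05 at any fold, 6 higher and 2 lower, again without the share of all genes. At an unadjusted p under 0.05 in edgeR's test there were 13 of 28 hosts and 7386 of 17812 genes. For 11 hosts the auxin libraries all lay above the untreated ones, as for 20.1% of all genes. The median of the hosts was 0.12 and that of all genes 0.01. With library sizes alone these medians were 0.01 and -0.09, and SNHG5 alone stayed called. With the small RNA counts taken off, the same 3 hosts were called.

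**Figure D3:**
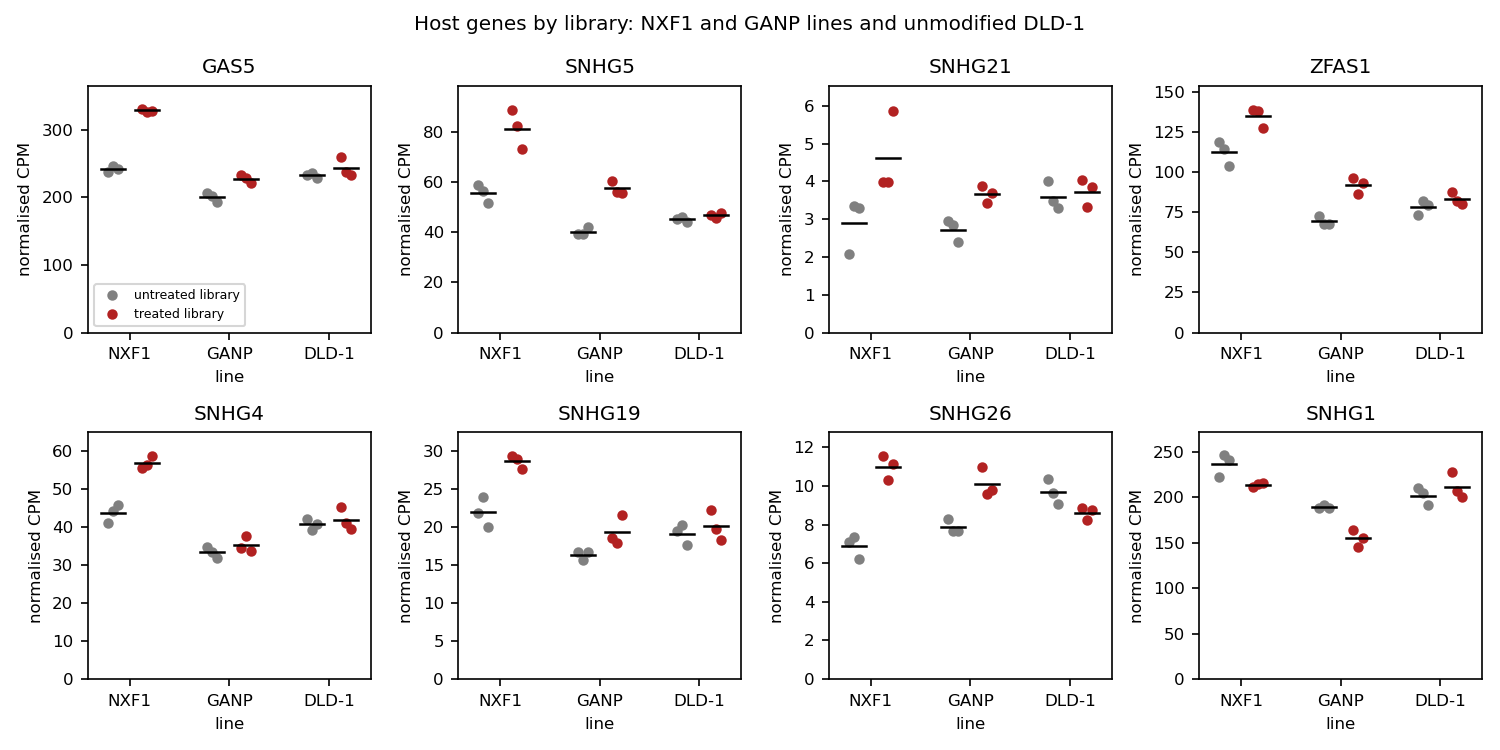
Normalised CPM of 8 host genes in each library of the NXF1 line (2 h of auxin), the GANP line (3 h) and original DLD-1 cells (2 h), with untreated libraries in grey, auxin libraries in red and their means as black lines; the axes start at 0. SNHG5 is higher in all auxin libraries of the NXF1 and GANP lines (55.6 to 88.5 CPM) than in their untreated ones (39.2 to 58.7 CPM, compared within a line), and the DLD-1 groups overlap.

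Auxin alone was tested in original DLD-1 cells, where 0 of 28 hosts were called by edgeR and 0 by DESeq2, 0 had an unadjusted p under 0.05, and 0.0561% of all genes were called. GAS5 had 259, 237 and 233 CPM with auxin and 233, 235 and 228 without (0.07), SNHG1 227, 207 and 199.99 and 209.6, 204 and 191 (0.07), ZFAS1 87.2, 81.8 and 80.2 and 73.1, 81.9 and 79.4 (0.09), and EPB41L4A-AS1 25.3, 24.2 and 27.3 and 23.3, 23.4 and 25.2 (0.09). All 4 overlapped between the groups. The smallest p-values were those of SNHG29 (0.08, unadjusted p = 0.071, adjusted p = 1) and SNHG26 (-0.17, 0.0753 and 1) in edgeR's test. Of the 28, 22 lay above 0, with a median of 0.05.

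The change after NXF1 loss differed from that in DLD-1 cells for 7 hosts, each higher after NXF1 loss, by edgeR's interaction term at an adjusted p under 0.05, while 9.71% of all genes did so. SNHG26 differed most (0.83 on the log2 scale), then SNHG5 (0.49) and SNHG3 (0.44). SNHG1 was lower after NXF1 loss with library sizes alone (-0.27, adjusted p = 0.0422) and with the replicate number as a block (-0.22, adjusted p = 0.0015). The block gave 15 hosts, 14 higher and 1 lower, although DLD-1 libraries share only a number, and its share of all genes is not given. For GANP loss 6 hosts differed from DLD-1, 4 higher and 2 lower (20.1% of all genes, a share near that of the hosts), with SNHG26 (0.54) and SNHG5 (0.48) the furthest above and SNHG18 (-0.49) and SNHG1 (-0.35) below. Without DLD-1 untreated replicate 2 that count was 3. Both tests use the same DLD-1 libraries. Between NXF1 and GANP loss, at different times of auxin, edgeR found 0 hosts that differed (2.62% of all genes), with 3 at an unadjusted p under 0.05, 1 by DESeq2 and 3 with the replicate number as a block. The absence of a call does not show that the responses were alike.

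Loss of TPR for 2 h gave 0 calls among the 28 hosts by edgeR and 0 by DESeq2, while 2 had an unadjusted p under 0.05 and 0.477% of all genes were called. The smallest p-values were those of SNHG7 (-0.30) and SNHG6 (0.18), with unadjusted p of 0.0215 and 0.0451 and adjusted p of 0.404 and 0.515 in edgeR's test. GAS5 had 235, 203 and 217 CPM with auxin and 242, 206 and 224 without (-0.04), SNHG1 209, 147 and 198 and 248, 169 and 219 (-0.20), ZFAS1 99.6, 82.3 and 98.2 and 92.8, 88.8 and 92.9 (0.03), and EPB41L4A-AS1 24.5, 23.8 and 26.3 and 25.98, 23.6 and 25.9 (-0.02). These 4 overlapped between the groups. The interaction with DLD-1 called 0 hosts by edgeR and 0 by DESeq2 (2 at an unadjusted p under 0.05, 0.825% of all genes). Libraries with the same number varied together in the AID-TPR line, and SNHG1 was lower with auxin in each of these 3 pairs. With the replicate number as a block TPR loss itself still gave 0 calls among the hosts, while the interaction passed for SNHG1 (-0.28, adjusted p = 0.00256) and SNHG7 (-0.33, adjusted p = 0.00368), both lower after TPR loss. In DLD-1 cells the libraries share only a number.

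In the libraries labelled old, edgeR called 0 hosts after 2 h without TPR (0.444% of all genes, 3 hosts at an unadjusted p under 0.05, 0 called by DESeq2) and 0 after 8 h (3.59% of all genes, 1 host at an unadjusted p under 0.05, 0 by DESeq2). After 2 h SNHG18 stood at -0.51 (adjusted p = 0.327) and SNHG7 at -0.47 (adjusted p = 0.355). After 8 h the smallest p-values were those of SNHG6 (0.33, adjusted p = 0.253) and SNHG10, which had 19.9, 6.55 and 16.9 CPM with auxin against 8.88, 8.83 and 7.003 without (log2 fold change 0.81, SE 0.35, adjusted p = 0.187). Auxin replicate 2 stood apart from the other 2 in SNHG10, and without it 5 hosts were called, all higher, SNHG10 among them (1.16, adjusted p = 0.00111). The share of all genes called without that library is not given, so the 5 do not set the hosts apart. GAS5 had 312, 220.4 and 244 CPM at 8 h and 268, 246 and 184 untreated (0.15), and ZFAS1 72.7, 45.7 and 55.2 and 58.1, 45.1 and 38.1 (0.30), with overlap in both. Between 8 h and 2 h 0 hosts were called by either tool, 0 had an unadjusted p under 0.05 and 0% of all genes were called.

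The gap between NXF1 and TPR loss at 2 h passed edgeR's interaction test for 3 hosts: GAS5 (0.47), SNHG25 (0.47) and SNHG8 (0.35), all higher after NXF1 loss, beside 2.28% of all genes. In both lines libraries with the same number varied together, and with the replicate number as a block 17 hosts passed, each higher after NXF1 loss. The 2.28% belongs to the test without the block. The share of all genes with it is not given, so the 17 cannot be set against one. Leaving out 1 library, with shares of all genes not given, moved the count without the block between 1 and 5. It was 1 without NXF1 auxin replicate 1, NXF1 untreated replicate 2 or 3, TPR auxin replicate 3 or TPR untreated replicate 1 or 3, and 5 without TPR untreated replicate 2.

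Loss of NUP153 gave 0 calls among the hosts at 2 h by edgeR and 0 by DESeq2 (2 at an unadjusted p under 0.05, 0.0225% of all genes called) and 0 at 8 h by edgeR (5 at an unadjusted p under 0.05, 2 called by DESeq2, 1.32% of all genes). At 2 h 24 of the 28 lay below 0, with a median of -0.12 against 0.00 over all genes. SNHG5 (-0.25) and EPB41L4A-AS1 (-0.18) had the smallest p-values, with adjusted p of 1 for both in edgeR's test. At 8 h SNHG9, host of SNORA78, had 6.78, 7.55 and 7.90 CPM with auxin and 5.39, 4.72 and 3.79 without (log2 fold change 0.68, SE 0.15, adjusted p = 0.051). Its groups did not overlap and its adjusted p was just over the threshold. EPB41L4A-AS1 had 20.8, 19.7 and 16.4 CPM and 26.3, 23.6 and 25.9 CPM (log2 fold change -0.41, SE 0.10, adjusted p = 0.0781), all auxin libraries below. Without auxin replicate 1 of 8 h 3 hosts were called, all higher, SNHG9 among them (0.74, adjusted p = 0.0364). That count has no share of all genes beside it.

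From 2 h to 8 h without NUP153, SNHG9 rose (0.73), the only host called (1.95% of all genes). The call was lost without auxin replicate 1 or 3 of 2 h or replicate 2 or 3 of 8 h (0 hosts each), and 7 hosts were called without replicate 1 of 8 h, a count without its share of all genes. GAS5 had 233, 294 and 269.7 CPM at 8 h and 289, 278 and 246 untreated (-0.03), SNHG1 172, 290.2 and 261 and 219, 225 and 148 (0.29), and ZFAS1 55.6, 53.4 and 50.6 and 53.2, 52.3 and 55.2 (-0.01), with overlap in each. Against NUP153 loss at 2 h, NXF1 loss differed for 8 hosts, all higher after NXF1 loss (8.13% of all genes), led by SNHG5 (0.80) and SNHG26 (0.80). With the replicate number as a block 16 did, a count without its share of all genes. The count of 8 fell to 3 without NXF1 auxin replicate 1, NXF1 untreated replicate 3 or NUP153 untreated replicate 1, to 4 without NUP153 untreated replicate 2 and to 5 without NXF1 untreated replicate 2.

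Loss of NUP50 gave 0 calls at 3 h by edgeR and 0 by DESeq2 (0 at an unadjusted p under 0.05, 0.18% of all genes), the smallest p-values being those of SNHG18 (-0.21, adjusted p = 0.876) and SNHG16 (0.12, adjusted p = 0.892) in edgeR's test. After 9 h SNHG1, host of a cluster of box C/D RNAs that includes SNORD22, was called higher (0.365% of all genes). It had 193, 203 and 187 CPM with auxin and 161, 127 and 139 without (log2 fold change 0.45, SE 0.083, adjusted p = 0.0386), with no overlap. The call was lost without any 1 of auxin replicates 1 to 3 (adjusted p = 0.0837, 0.313 and 0.0614) or untreated replicates 2 and 3 (0.179 and 0.118), and 5 hosts were called without untreated replicate 1, a count without its share of all genes. In this comparison 22 of the 28 lay above 0 and 10 had an unadjusted p under 0.05. GAS5 had 232, 224 and 236 CPM and 209, 185 and 213 CPM (0.19, adjusted p = 0.191), ZFAS1 38.3, 38.8 and 45.2 and 41.01, 33.9 and 43.5 (0.04, adjusted p = 0.916), and EPB41L4A-AS1 16.7, 17.6 and 21.9 and 16.6, 18.2 and 19.5 (0.05, adjusted p = 0.927). From 3 h to 9 h 0 hosts were called by either tool (4 at an unadjusted p under 0.05, 0.258% of all genes).

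Loss of RANGAP1 lowered 2 hosts at 2 h, SNHG12 and EPB41L4A-AS1 (7.14% of the 28, against 0.545% of all genes called and 0.107% called lower). SNHG12, host of SNORD99 and 3 box H/ACA RNAs, had 51.8, 51.6 and 53.2 CPM with auxin and 83.2, 79.4 and 71.2 without (log2 fold change -0.58, SE 0.082, adjusted p = 0.013). EPB41L4A-AS1, host of SNORA13, had 14.4, 15.4 and 13.6 CPM and 22.6, 21.5 and 19.7 CPM (log2 fold change -0.56, SE 0.097, adjusted p = 0.0393). In both every auxin library lay below every untreated one. For 10 hosts the auxin libraries all lay below, as for 6.15% of all genes, and 24 of the 28 had a log2 fold change under 0. Both calls were lost without auxin replicate 2 or untreated replicate 1 or 2 (0 hosts each), and that of EPB41L4A-AS1 also without auxin replicate 1 (adjusted p = 0.103) or 3 (0.113).

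By 8 h 9 hosts had fallen and 2 had risen, of 28 tested. Of all genes 14.8% were called, 6.62% lower and 8.23% higher. SNHG12 was at 31.4, 32.8 and 32.9 CPM (log2 fold change -1.26, SE 0.077, adjusted p = 8.27e-06) and EPB41L4A-AS1 at 10.4, 10.01 and 9.17 CPM (log2 fold change -1.11, SE 0.094, adjusted p = 3.84e-05), against the same untreated libraries. Both were lower than at 2 h, by 0.69 and 0.55 on the log2 scale, each past the test. SNHG26 had 5.04, 5.55 and 4.67 CPM with auxin and 9.39, 9.47 and 8.53 without (log2 fold change -0.85, SE 0.11, adjusted p = 0.000457). SNHG4, host of SNORA74A, had 23.6, 24.9 and 24.2 and 41.7, 42.4 and 41.5 CPM (log2 fold change -0.79, SE 0.066, adjusted p = 3.68e-05). SNHG5, which had risen without NXF1 or GANP, had 26.96, 24.9 and 22.7 and 43.8, 43.8 and 37.6 CPM (log2 fold change -0.75, SE 0.091, adjusted p = 0.000298). None of these groups overlapped. SNHG25, whose small RNAs held about as many counts as the host, had 12.1, 10.9 and 11.5 and 18.7, 18.7 and 19.99 CPM (log2 fold change -0.74, SE 0.084, adjusted p = 0.000212).

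SNHG1 had 114, 117 and 106 CPM at 8 h and 182, 194 and 159 untreated (log2 fold change -0.67, SE 0.082, adjusted p = 0.000333), and GAS5 116, 112 and 111 and 158, 172 and 157 (log2 fold change -0.52, SE 0.065, adjusted p = 0.000358). Both groups of both genes stood apart. GAS5 and SNHG17 (-0.52) were close to the fold of 0.7. GAS5 missed it without auxin replicate 2 (-0.51) or 3 (-0.50) or untreated replicate 2 (-0.48), and SNHG17 without auxin replicate 3 (-0.49) or untreated replicate 2 (-0.51) or 3 (-0.51). ZFAS1 had 59.2, 57.2 and 46.3 and 78.3, 77.5 and 58.6 CPM, with an untreated library among the auxin ones (-0.40, adjusted p = 0.0365, under the fold). Without untreated replicate 3 it was called (-0.52), and with its small RNA counts taken off it no longer passed the test (-0.23, adjusted p = 0.242). Only 1 of the 3 small RNA genes of ZFAS1 lies wholly within its exons. The subtraction may thus take off reads that its count never held, and does not measure the part of the small RNAs. The 2 that rose were SNHG18 (18.1, 16.5 and 16.1 against 13.4, 12.5 and 9.73 CPM, log2 fold change 0.51, SE 0.12, adjusted p = 0.011) and SNHG30, host of SNORD7 (6.96, 6.58 and 7.52 against 4.96, 5.48 and 4.14 CPM, log2 fold change 0.54, SE 0.13, adjusted p = 0.0117). Neither overlapped between the groups. For 13 hosts all auxin libraries lay below, beside 20.6% of all genes, and for 4 above, beside 21.5% of all genes.

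Between 2 h and 8 h without RANGAP1 5 hosts were called (8.8% of all genes): SNHG12, EPB41L4A-AS1 and SNHG26 were lower at 8 h, while SNHG18 (0.68) and SNHG10 (0.47) were higher. The median of the hosts went from -0.14 to -0.29. At 8 h 4 of 13 box C/D hosts and 4 of 10 box H/ACA hosts were lower, and the 4 Cajal body hosts lay between 0.05 and 0.35. The 7 hosts with a pyrimidine run at the RefSeq start had a median of -0.40 and the 17 without it 0.05. As above, the split was not tested and rests on RefSeq starts, which for GAS5, SNHG3 and SNHG14, all without a run, lie outside the GENCODE gene. With the small RNA counts taken off where they came to under 50% of the host, the same hosts were called at both times as without the subtraction, and ZFAS1, SNHG8 (-0.26, adjusted p = 0.0536) and SNHG19 (0.00, adjusted p = 0.998) no longer passed the test at 8 h at any fold. SNHG12, SNHG4, SNHG17 and SNHG25 could not be corrected, and the counts on their small RNAs at 8 h were 72.95%, 91.43%, 123.4% and 98.01% of the host count, against 57.04%, 50.61%, 82.74% and 108.2% untreated.

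**Figure D4:**
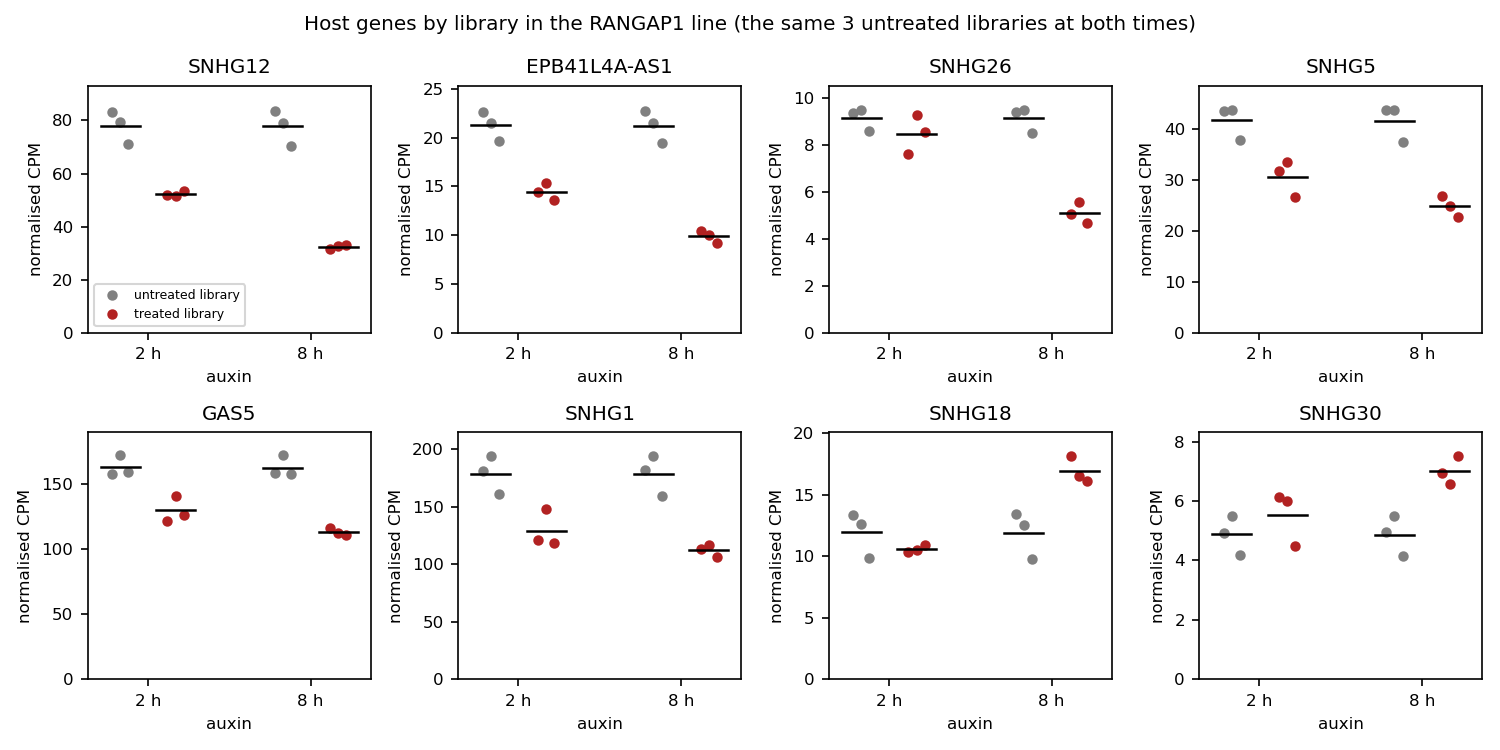
Normalised CPM of 8 host genes in each library of the RANGAP1 line after 2 h and 8 h of auxin (red) beside the same 3 untreated libraries (grey), with means as black lines; the axes start at 0. SNHG12 went from 71.2 to 83.2 CPM untreated to 51.6 to 53.2 at 2 h and 31.4 to 32.9 at 8 h, and SNHG18 and SNHG30 are higher at 8 h.

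Loss of RANGAP1 and loss of NXF1, each at 2 h, differed by edgeR's interaction term for 10 hosts, all higher after NXF1 loss (8.14% of all genes). With the replicate number as a block 19 differed, 18 of them higher, a count without its share of all genes. SNHG5 differed most (0.99), then SNHG12 (0.92), SNHG19 (0.86), SNHG10 (0.83) and SNHG4 (0.83), with GAS5 at 0.77. SNHG12 and EPB41L4A-AS1, the pair that fell at 2 h without RANGAP1, had log2 fold changes of 0.35 and -0.06 without NXF1.

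ActD for 2 h, set against untreated AID-TPR libraries labelled old, which were counted in the same way, lowered 5 hosts of 28: SNHG7, SNHG12, SNHG15, SNHG17 and SNHG18. Of all genes 21.1% were called and 12.3% called lower. SNHG18 had 4.05, 4.71 and 3.24 CPM with ActD and 10.8, 10.6 and 8.93 without (log2 fold change -1.35, SE 0.18, adjusted p = 0.000888). SNHG12 had 33.7, 32.1 and 36.5 and 80.4, 66.96 and 49.5 CPM (log2 fold change -0.94, SE 0.16, adjusted p = 0.00299), and SNHG7, host of SNORA17A and SNORA17B, 31.1, 26.8 and 26.03 and 58.9, 50.2 and 42.2 CPM (log2 fold change -0.85, SE 0.14, adjusted p = 0.00234). No ActD library of these 3 reached an untreated one. SNHG17 had 21.2, 17.1 and 27.2 and 42.5, 35.1 and 37.6 CPM (log2 fold change -0.81, SE 0.16, adjusted p = 0.00691), and SNHG15, host of SNORA9, 29.4, 32.2 and 26.2 and 63.7, 49.5 and 38.8 CPM (log2 fold change -0.79, SE 0.17, adjusted p = 0.00867). Both kept apart in the same way, although untreated SNHG15 spread from 38.8 to 63.7 CPM. Of the 5 called, 4 carry mostly box H/ACA RNAs and SNHG18 a box C/D RNA.

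GAS5, SNHG1 and ZFAS1, which are known targets of decay during translation, did not pass the test. GAS5 had 213, 243 and 194 CPM with ActD and 268, 246 and 184 without (-0.10, adjusted p = 0.668), and SNHG1 203, 188 and 196 and 236, 176 and 124 (0.13, adjusted p = 0.676). ZFAS1 had 50.97, 59.4 and 43.9 and 58.2, 45.2 and 38.1 CPM (0.12, adjusted p = 0.644), and EPB41L4A-AS1 26.7, 31.5 and 23.99 and 25.9, 25.2 and 23.8 CPM (0.13, adjusted p = 0.502). In each of these 4 the groups overlapped. SNHG16 (0.35, adjusted p = 0.0304) and SNHG8 (0.36, adjusted p = 0.0482) passed the test but not the fold, both higher. Since CPM is relative to all RNA left, a value near 0 is no measure of a stable RNA per cell. Scaled to the ribosomal protein genes instead, the median of all genes was itself -0.31, and 10 hosts were called, all lower. The share of all genes called with this scaling is not given, so the count does not set the hosts apart from other genes.

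The labels do not say to which set of AID-TPR libraries the ActD libraries belong. With the untreated libraries that lack the label old as control, 14 hosts were called (12 lower, 2 higher), a count given without its share of all genes. SNHG17 (-0.45, adjusted p = 0.057) and SNHG18 (-0.01, adjusted p = 0.982) no longer were, and ZFAS1 turned from 0.12 to -0.94 (adjusted p = 8.09e-05). Those libraries were counted with overlap and the ActD ones without. For hosts that share exon bases this cannot be told apart from a change. SNHG18 shared none in the annotation used, but its untreated mean was 3.74 CPM without the label old and 10.6 with it. Its call with ActD thus rested on the untreated set chosen, and the reason for the gap was not tested. Without old untreated replicate 1, 8 hosts were called (5 lower, 3 higher), again without a share of all genes. Auxin together with ActD, against ActD alone, gave 0 calls by edgeR and 0 by DESeq2 (1 at an unadjusted p under 0.05, 0% of all genes), SNHG12 (0.32, adjusted p = 1) and SNHG25 (-0.28, adjusted p = 1) having the smallest p-values. Whether the effect of auxin differed with ActD gave 0 calls by either tool (1 at an unadjusted p under 0.05, 0.0225% of all genes).

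**Figure D5:**
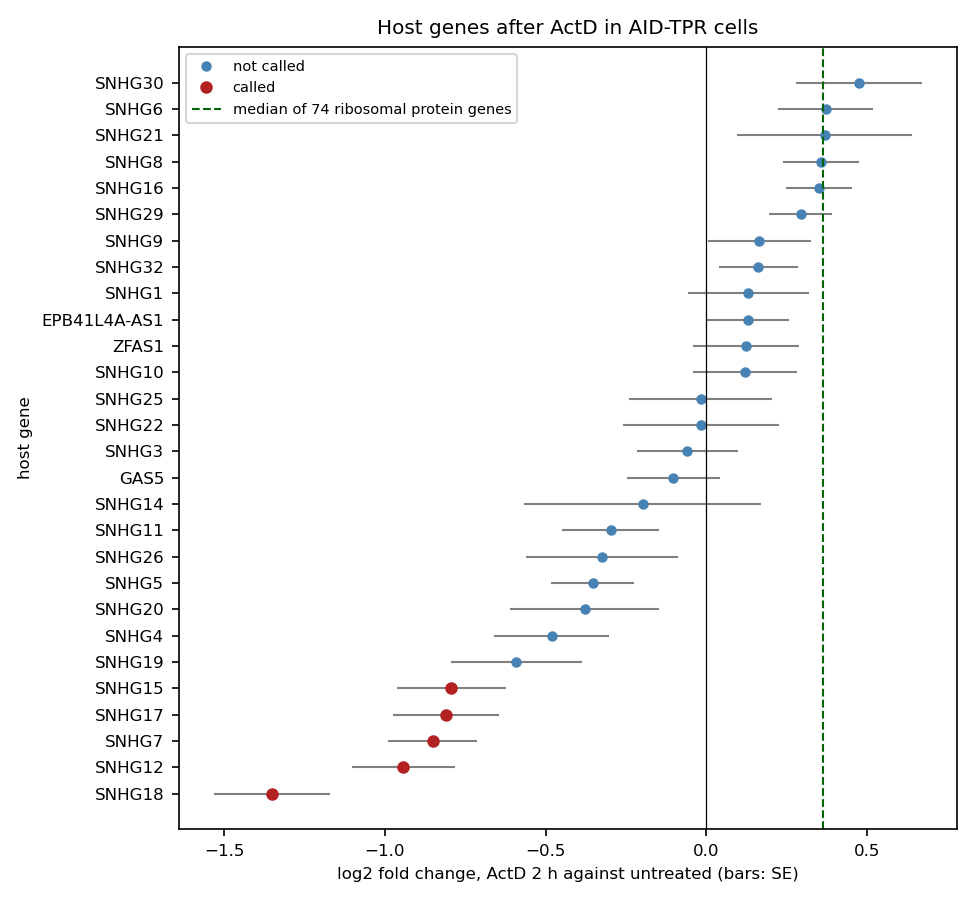
Log2 fold change of the 28 tested host genes after 2 h of ActD against untreated AID-TPR libraries labelled old (bars: standard error), in order, with called genes in red and the median of 74 ribosomal protein genes as a dashed line at 0.36. The 5 called genes form the lower end, from -1.35 to -0.79, and GAS5, SNHG1, ZFAS1 and EPB41L4A-AS1 lie within 0.13 of 0.

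Other genes of the same pathways are given by counts and medians. The small RNAs within the hosts had the most calls without RANGAP1: at 8 h 26 of 47 tested fell (6.62% of all genes called lower), with a median of -0.80, led by SNORD99 of SNHG12 (-2.19), SNORD12C of ZFAS1 (-1.81), SNORA13 of EPB41L4A-AS1 (-1.52) and SNORD50B of SNHG5 (-1.46), and at 2 h 2 fell, SNORD99 (-1.12) and 1 of the copies annotated as SNORD22 (-0.76). The libraries were not selected for small RNA, so such counts can come from host introns as well as from the mature RNA. After GANP loss 4 rose and 1 fell (3.93% and 11.5% of all genes), the latter SNORD99 (-0.56). After ActD 4 fell (12.3% of all genes), among them SNORD99 (-2.73) and SNORD12C (-1.99), where most of the 47 had no counts at all. Protein-coding genes that host small RNAs (166 tested) had 2 higher and 1 lower without NXF1 (median 0.11), 4 and 2 without GANP (0.18), 10 and 3 after 8 h without RANGAP1 (0.01), and 33 and 11 with ActD (0.18). The shares of all genes called higher and lower were 2.18% and 5.93%, 3.93% and 11.5%, 8.23% and 6.62%, and 8.79% and 12.3% in the same order.

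Ribosomal protein genes, which share the pyrimidine start with several hosts, had medians of 0.17 without NXF1 (72 of 74 above 0), 0.23 without GANP (73 of 74) and 0.01 after 8 h without RANGAP1 (38 of 74), and with ActD 32 rose and 1 fell (0.36, with 8.79% of all genes called higher). Of 10 factors of nonsense-mediated decay, 4 fell without NXF1 (median -0.37, 5.93% of all genes called lower), with SMG9 at -0.98, UPF3B at -0.69, SMG5 at -0.63 and UPF2 at -0.59. After GANP loss 4 fell too (median -0.45, 11.5% of all genes called lower), SMG9 by 1.25, UPF3B by 1.10, SMG5 by 1.01 and SMG8 by 0.78. After 8 h without RANGAP1 5 of the 10 rose (median 0.38, 8.23% of all genes called higher), SMG9 at 1.15, UPF1 at 0.79, UPF2 at 0.74, UPF3B at 0.56 and SMG5 at 0.41. The part of these changes in those of the hosts was not tested. Of 8 short-lived messenger RNAs, 3 were called lower with ActD, MYC (-2.83), KLF6 (-0.98) and IER2 (-0.94), beside 12.3% of all genes. Another 3 of the 8 lay above 0, up to 0.93. Among 3 RNAs kept in the nucleus KCNQ1OT1 was called lower (-0.74), while the other 2 lay above 0, up to 0.54.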

How the data were processed

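Per the labels and the methods, the authors made total RNA libraries after depletion of ribosomal RNA, mapped them to GRCh38 with STAR and counted reads per Ensembl gene with featureCounts. The processing notes of the submitters name CASAVA 1.8.2, STAR 2.6.1c and featureCounts 1.5.2. The deposited files hold raw counts on 58051 genes for each of 66 libraries, without normalization. Gene names and exons came from GENCODE release 44 (GRCh38), in which 56948 identifiers were found and 1103 were not. The annotation is later than that used for counting, so exon overlaps and lengths are approximate.

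Genes with more than 1 CPM in at least 4 of the 60 libraries without ActD were kept (17812). Counts were normalized by TMM and tested with edgeR 4.0.16 (quasi-likelihood, limma 3.58.1, R 4.3.3) between the 2 groups of a comparison, with Benjamini-Hochberg adjustment over all kept genes. Genes called in DLD-1 cells (10) were taken out of the calls of tagged lines without ActD. CPM values are TMM-normalized within a comparison. The SE was derived from the log2 fold change and its F statistic. Differences between lines were tested by interaction terms, called at an adjusted p under 0.05 at any fold, and between times as for treatments. The fits were tested on simulated data. Python 3.11.15 with pandas 2.3.3 and matplotlib 3.10.9 made tables and figures. Start sites and their sequences are RefSeq's, on GRCh38.p14.

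The members and lists were chosen with earlier results of these data known. The lists were small RNA genes within the hosts, protein-coding hosts, ribosomal protein genes, decay factors, short-lived messenger RNAs, nuclear RNAs and cell type markers. Values per library are given for GAS5, SNHG1, ZFAS1 and EPB41L4A-AS1 and, in each comparison, for at most 6 called hosts with the largest change and a mean of at least 50 counts; where none was called, the 2 smallest p-values are named. Some other values were chosen after they were seen.

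As a check on pairing, libraries with the same replicate number were correlated in their deviations from the group means. The correlation was over 0.1 for all 3 numbers in 9 of 17 comparisons within a line, among them NXF1, GANP, RANGAP1 at both times, NUP153 at 2 h and TPR at 2 h without the label old. Alternatives were RLE, library sizes alone, DESeq2 1.42.0, 3 other filters, the replicate block, 1 fit over 60 libraries, other call rules, each library left out and, added after the data were seen, hosts less their small RNA counts.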

Additional observations from a re-analysis of the deposited data

Results flagged for a closer look

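The results below had changes that differed between lines or times at an adjusted p under 0.05 by edgeR's quasi-likelihood test, with positive values where the first-named change was higher on the log2 scale. The reason for a difference was not tested. Comparisons that share NXF1 or DLD-1 libraries are not independent.

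Against auxin in original DLD-1 cells, the change after NXF1 loss was higher for SNHG5 (0.49), SNHG26 (0.83), GAS5 (0.37), SNHG3 (0.44), SNHG6 (0.37), SNHG22 (0.37) and SNHG4 (0.33), beside 9.71% of all genes that differed. The change after GANP loss differed from that in DLD-1 cells for ZFAS1 (0.32), SNHG5 (0.48), SNHG26 (0.54), SNHG6 (0.29), SNHG18 (-0.49) and SNHG1 (-0.35), the last 2 being lower after GANP loss. These 6 of 28 are near the 20.1% of all genes that differed, and of 18 alternatives SNHG6 kept its call in 7 and SNHG18 in 11. GANP libraries had 3 h of auxin and DLD-1 libraries 2 h.

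Against TPR loss for 2 h, NXF1 loss gave higher changes for GAS5 (0.47), SNHG25 (0.47) and SNHG8 (0.35), beside 2.28% of all genes, and SNHG25 kept its call in 10 of 18 alternatives and SNHG8 in 6. Against RANGAP1 loss for 2 h it did so for SNHG12 (0.92), SNHG5 (0.99), EPB41L4A-AS1 (0.50), SNHG26 (0.78), GAS5 (0.77), SNHG10 (0.83), SNHG19 (0.86), SNHG25 (0.60), SNHG8 (0.38) and SNHG4 (0.83), beside 8.14% of all genes, with EPB41L4A-AS1 keeping its call in 11 of 18 alternatives and SNHG8 in 8. Against NUP153 loss for 2 h the hosts were SNHG29 (0.28), SNHG5 (0.80), SNHG26 (0.80), GAS5 (0.57), SNHG6 (0.46), SNHG19 (0.60), SNHG25 (0.58) and SNHG8 (0.35), beside 8.13% of all genes, and SNHG29 and SNHG8 each kept the call in 8 of 18 alternatives and SNHG25 in 12. Reads on overlapping genes were taken as counted in the NXF1 and RANGAP1 lines and not in the NUP153 line, in treated and untreated libraries alike. The part of this in the differences was not tested.

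Between times, SNHG9 was higher at 8 h than at 2 h without NUP153 (0.73), a call kept in 8 of 13 alternatives, beside 1.95% of all genes. Without RANGAP1, SNHG12 (-0.69), EPB41L4A-AS1 (-0.55), SNHG26 (-0.74), SNHG10 (0.47) and SNHG18 (0.68) differed between 8 h and 2 h, with negative values lower at 8 h, beside 8.8% of all genes.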

How the results depend on the processing

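Over all comparisons, 368 of 436 counts of called hosts recomputed under an alternative lay within 1.5 times the reported count and 68 did not. Of the values of single hosts, 2870 kept their direction and side of the threshold, 157 lost the call, 36 gained one and 1 reversed, ZFAS1 after ActD (-0.94 with untreated libraries that lack the label old as control). The causes were not tested, except where fewer libraries, another call rule or another control set was itself the change.

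With 1 fit over 60 libraries the count was 4 for NXF1 loss, 1 for RANGAP1 loss at 2 h, 0 for NUP50 loss at 9 h, 1 for NUP153 loss at 8 h, and 1 and 2 for TPR loss at 2 h and 8 h (old label). Without a filter on low counts it was 2 for TPR loss at 8 h, 2 for NUP153 loss at 8 h, 2 for NUP50 loss at 9 h and 10 for ActD, with 10 for NXF1 against TPR and 5 for NUP153 at 8 h against 2 h. DESeq2 gave 2 for NUP153 loss at 8 h, 2 for NUP50 loss at 9 h, 1 for NXF1 against GANP, 6 for NXF1 against TPR and 2 for NUP153 at 8 h against 2 h. With filterByExpr NUP153 loss at 8 h gave 1. At an adjusted p alone, with no fold required, 17 hosts passed for RANGAP1 loss at 8 h, 15 for NXF1 loss and 8 for GANP loss. With library sizes alone the counts were 4 for NXF1 loss, 1 for GANP loss, 1 for NXF1 against GANP and 1 for NXF1 against TPR. For ActD the other untreated libraries gave 14 and scaling to ribosomal protein genes 10. All these counts stand without the share of all genes called under the same alternative, and say only how the calls of the hosts moved.

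With the replicate block the counts were 17 for NXF1 against TPR, 19 against RANGAP1, 16 against NUP153 and 3 against GANP, where the numbers pair the libraries of both lines. Where they share only a number in at least 1 of the lines, they were 15 for NXF1 and 2 (SNHG1 and SNHG7) for TPR against DLD-1, 5 for NUP50 loss at 9 h and 0 for NUP153 at 8 h against 2 h. The block moved no other count by over 1.5 times. Shares of all genes with the block are not given, so these counts do not set the hosts apart from other genes. No block was fitted for ActD against untreated libraries, whose numbers come from different label sets.

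Leaving out 1 library gave 6 to 10 hosts for NXF1 loss, 1 to 4 for GANP loss, 0 to 2 and 9 to 13 for RANGAP1 loss at 2 h and 8 h, 5 to 8 for ActD, 0 to 5 for TPR loss at 8 h, 0 to 3 for NUP153 loss at 8 h and 0 to 5 for NUP50 loss at 9 h. The range was 5 to 8 and 3 to 7 for NXF1 and GANP against DLD-1, 1 to 5 for NXF1 against TPR, 8 to 13 against RANGAP1, 3 to 12 against NUP153, 0 to 7 for NUP153 at 8 h against 2 h and 4 to 6 for RANGAP1 at 8 h against 2 h. The other counts stayed at 0. None of these counts comes with the share of all genes in the same fit. Of the tested hosts SNHG21 had the lowest mean count (73.9 over 66 libraries), and 3 libraries a group limit every test.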
